A study of Mus musculus with 2 samples.

Results

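The S100 calcium-binding proteins were followed as a set of 10 genes in cells of healing mouse skin. The members were S100a1, S100a4, S100a6, S100a8, S100a9, S100a10, S100a11, S100a13, S100a16 and S100b. They are part of the S100 family and were chosen with earlier results of these data known. Other measured S100 genes, mostly under the floor described below, are given separately. Counts over the members are therefore not counts over the whole family. Each member had a probe set of its own, out of 19938 genes with such a probe set on the array. B-Gal positive cells were compared with B-Gal negative cells. Both groups came from scar tissue 1 week after the skin was wounded, both from mice labelled as TCF reporter mice, and both carried the reporter, so there was no array of wild-type mice. Each group had 1 array (Affymetrix Mouse Gene 1.0 ST, total RNA), which limits the precision: no difference below has a replicate error or a test. B-Gal is read here as beta-galactosidase and TCF as the family of transcription factors that work with beta-catenin in Wnt signalling. The labels do not state which promoter drives the reporter, how the cells were sorted apart or how many mice each array stands for.

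S100 proteins are small proteins that pair into dimers, and each subunit carries a pair of EF-hand loops, the helix-loop-helix sites that hold a calcium ion. Inside the cell, calcium binding opens a surface that grips partner proteins such as annexins and myosin. Several members are also released from damaged or activated cells and then act as alarm signals on receptors such as TLR4 and RAGE. In wounded skin, S100A8 and S100A9 are best known as the calprotectin pair, which neutrophils hold in their cytosol in large amounts and wound-edge keratinocytes can also make.

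Of the 10 members, 9 lie on chromosome 3 and S100b lies on chromosome 10, in the RefSeq annotation of the mouse assembly GRCm38.p6. RefSeq windows of 300 bases, 250 before and 50 after an annotated start, matched 9 of the 10 members by symbol, and S100a10 was the exception. The windows of the 3 members with the lowest differences, S100a9, S100a16 and S100a8, and of the member with the highest, S100a1, are printed 5′ to 3′. In the S100a9, S100a8 and S100a16 lines, capitals mark matches on either strand to TATAAA (the TATA box), GGGCGG (the GC box), TGANTCA (the AP-1 site) or TTGCNNAA (a C/EBP site). In the S100a1 line, where none of these motifs matched, capitals mark the 204 bases that also lie in the window of S100a13 on the other strand.
S100a9, chr3:90695672-90695971 (- strand): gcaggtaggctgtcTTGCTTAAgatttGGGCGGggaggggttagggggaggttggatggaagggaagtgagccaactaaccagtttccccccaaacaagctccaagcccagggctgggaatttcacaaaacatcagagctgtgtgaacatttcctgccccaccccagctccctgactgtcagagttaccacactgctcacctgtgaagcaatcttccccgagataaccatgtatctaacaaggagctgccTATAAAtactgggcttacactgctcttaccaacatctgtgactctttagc
S100a8, chr3:90668821-90669120 (+ strand): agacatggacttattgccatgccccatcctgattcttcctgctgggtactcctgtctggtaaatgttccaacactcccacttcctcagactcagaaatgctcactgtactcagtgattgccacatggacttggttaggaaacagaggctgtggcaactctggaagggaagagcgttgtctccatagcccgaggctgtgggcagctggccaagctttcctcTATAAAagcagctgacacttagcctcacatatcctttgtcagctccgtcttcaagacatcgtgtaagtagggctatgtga
S100a16 upstream start, chr3:90537004-90537303 (+ strand): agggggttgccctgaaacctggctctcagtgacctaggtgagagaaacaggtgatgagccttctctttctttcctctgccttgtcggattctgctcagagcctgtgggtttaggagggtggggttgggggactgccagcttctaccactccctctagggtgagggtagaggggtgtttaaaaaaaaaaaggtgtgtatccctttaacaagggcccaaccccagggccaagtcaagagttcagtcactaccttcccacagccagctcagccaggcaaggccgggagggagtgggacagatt
S100a16 downstream start, chr3:90540896-90541195 (+ strand): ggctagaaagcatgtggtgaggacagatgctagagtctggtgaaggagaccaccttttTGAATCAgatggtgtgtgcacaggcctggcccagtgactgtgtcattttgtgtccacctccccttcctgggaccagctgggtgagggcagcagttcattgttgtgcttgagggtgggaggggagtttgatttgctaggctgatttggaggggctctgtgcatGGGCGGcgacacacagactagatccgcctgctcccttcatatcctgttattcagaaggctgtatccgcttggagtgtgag
S100a1, chr3:90514281-90514580 (- strand): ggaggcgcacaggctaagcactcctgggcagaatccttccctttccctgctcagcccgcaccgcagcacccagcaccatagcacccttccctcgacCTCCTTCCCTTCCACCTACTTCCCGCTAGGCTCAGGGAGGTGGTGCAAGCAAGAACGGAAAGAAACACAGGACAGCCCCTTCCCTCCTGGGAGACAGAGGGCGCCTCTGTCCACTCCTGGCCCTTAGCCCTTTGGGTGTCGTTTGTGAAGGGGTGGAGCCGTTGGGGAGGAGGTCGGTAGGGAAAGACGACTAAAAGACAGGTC

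A TATAAA match stood in the windows of S100a4, S100a8 and S100a9, that is in 3 of the 10 member windows (S100a16 has 2), against 13.6% of all 32851 RefSeq windows. In S100a8 the match began 30 bases before the annotated start and in S100a4 it began 31 bases before it, while in S100a9 it began at the annotated start itself. GGGCGG matched in S100a9, S100a11 and the downstream window of S100a16, against 35.7% of all windows. TGANTCA matched in S100a11, as TGAGTCA, and in the downstream window of S100a16, as TGAATCA, against 7.81% of all windows. TTGCNNAA matched in S100a9 alone among the members, against 10.8% of all windows. These matches describe the letters in each window and do not show binding.

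Values are the deposited probe set values, read as log2 intensities, and a difference is the B-Gal positive value minus the B-Gal negative value. A gene was counted as expressed when at least 1 array lay above a floor of 5.59, the 95th percentile of 1194 olfactory and vomeronasal receptor genes. Differences of those receptor genes between the arrays had their central 95% between -0.44 and 0.98, which gives a rough measure of scatter at low signal and no replicate error. Their median was 0.28, so low values leaned to the B-Gal positive side. Of the 10 members, 9 passed the floor, all 9 of them on both arrays, and S100b passed it on neither. S100a8 and S100a9, the calprotectin genes, and S100a16 were the members lowest in B-Gal positive cells, by 6.54-fold to 10.6-fold. S100a6 was 2.12-fold lower, and S100a1 was 2.59-fold higher. Thus 4 members were at least 2-fold lower, beside 12.7% of the 13784 expressed genes, and 1 was at least 2-fold higher, beside 9.92% of them. At 4-fold, 3 members were lower, against 5.72% of expressed genes, and 0 were higher, against 3.01%. The median difference was -0.93 over the 9 members above the floor and -0.55 over all 10, against 0.06 over all expressed genes.

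**Figure D1:**
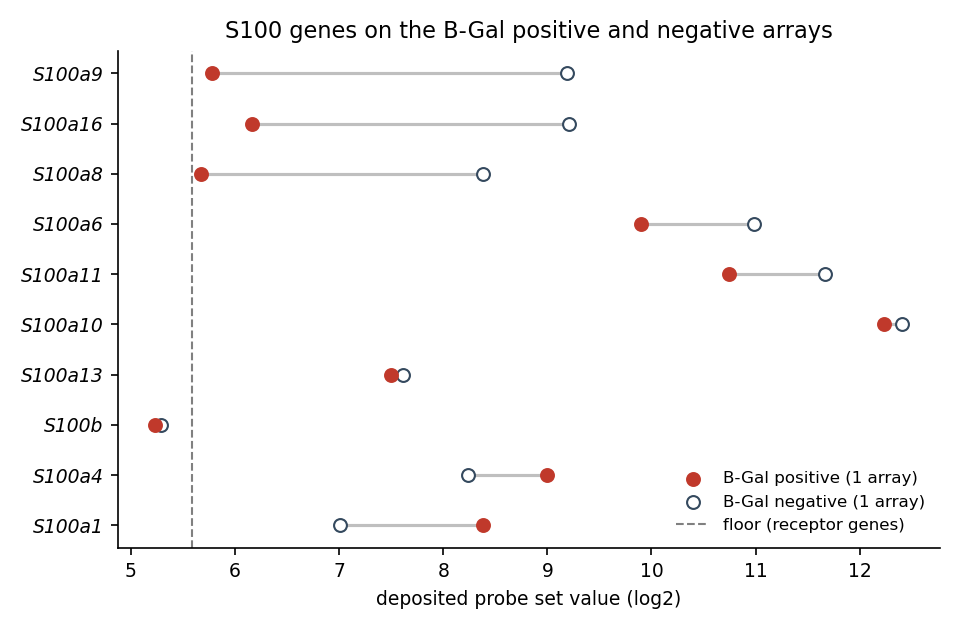
Deposited log2 value of each S100 gene (x axis) on the B-Gal positive array (filled points) and the B-Gal negative array (open points), 1 array each, with genes ordered from the lowest difference at the top to the highest at the bottom and the floor of 5.59 as a dashed line. The points of S100a9, S100a16 and S100a8 lie far apart, with the B-Gal positive point near the floor, while those of S100a10, S100a13 and S100b nearly coincide.

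Of the members released as alarm proteins, the calprotectin genes had the largest differences. S100a9 had a value of 5.78 in B-Gal positive cells and 9.19 in B-Gal negative cells, a difference of -3.41. S100a8, whose protein is its dimer partner, had values of 5.68 in B-Gal positive cells and 8.39 in B-Gal negative cells, a difference of -2.71. Both B-Gal positive values were less than 0.2 above the floor, so the 2 genes were close to the level of receptor genes there and clearly above it in B-Gal negative cells. S100a9 had the 232nd lowest difference of the 13784 expressed genes and S100a8 the 447th lowest. Under a stricter floor of 6.27, the receptor genes' 99th percentile, both B-Gal positive values lay below the floor, which makes S100a9 at least 7.56-fold lower and S100a8 at least 4.34-fold lower. With an offset of 32 on the linear scale S100a9 was 7.07-fold lower.

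Neutrophil markers, given beside these genes as the cell type best known for them, were mixed. Besides S100a8 and S100a9 the list held 18 genes, of which 16 were measured and 13 expressed. Its counts are given beside 9.92% of all expressed genes at least 2-fold higher and 12.7% lower. At least 2-fold lower were 5 of the 13, namely Cxcr2, the receptor for neutrophil-attracting CXC chemokines, Retnlg, a resistin-like gene, Lcn2, the lipocalin that captures bacterial siderophores, Il1r2, a decoy receptor for interleukin 1, and Hdc, the histamine-forming enzyme, which mast cells also make. Cxcr2 had values of 4.09 in B-Gal positive cells and 7.82 in B-Gal negative cells and was at least 4.71-fold lower, and Hdc was 8.85-fold lower. Retnlg, Lcn2 and Il1r2 are named after their values were seen, to complete the set of 5, and Lcn2 was 5.76-fold lower. On the other side 2 genes were at least 2-fold higher on deposited values, the C-type lectin gene Clec4d (3.83-fold) and the collagenase gene Mmp8 (at least 1.56-fold against the floor), also named after their values were seen. Csf3r, the receptor for the granulocyte growth factor G-CSF, had values of 8.86 in B-Gal positive cells and 8.37 in B-Gal negative cells. The summed linear signal of the 16 measured genes was 6598 in B-Gal positive cells and 5048 in B-Gal negative cells, and 5 genes on the B-Gal positive array and 7 on the B-Gal negative array were at or under the floor. Clec4d alone set the direction of that sum: without it the other 15 genes summed to 2694 in B-Gal positive cells and 4027 in B-Gal negative cells. The median difference of the 13 expressed genes was 0.43, and under the stricter floor, which 9 genes passed, it was -1.38. The part of neutrophils in the S100a8 and S100a9 differences was not tested, and in RNA of whole samples fewer cells of a type and less RNA per cell cannot be told apart.

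Keratinocytes, the other wound source of calprotectin, gave low values on both arrays. Of 12 markers, 8 were expressed, and 2 were at least 2-fold lower, beside 12.7% of all expressed genes. They were Krt5 and Krt14, the keratin pair of the basal layer. Krt5 was at least 2.88-fold lower, with values of 5.48 in B-Gal positive cells and 7.11 in B-Gal negative cells. The summed linear signal of the 12 markers was 565 in B-Gal positive cells and 751 in B-Gal negative cells, with 6 markers at or under the floor on the B-Gal positive array and 5 on the B-Gal negative array. The part of keratinocytes in the S100 differences was not tested.

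S100b, the other well-known extracellular member, is a marker of Schwann cells, astrocytes and melanocytes. Its values were 5.24 in B-Gal positive cells and 5.29 in B-Gal negative cells, both under the floor, so no fold is given. The list of Schwann cell and melanocyte markers had 8 of 13 measured genes expressed. Beside 9.92% of all expressed genes at least 2-fold higher and 12.7% lower, it had 1 higher gene and 0 lower. That gene was Mitf, a transcription factor of melanocytes that macrophages and mast cells also use, at 3.22-fold. Sox10, the transcription factor shared by Schwann cells and melanocytes, had values of 6.47 in B-Gal positive cells and 6.36 in B-Gal negative cells.

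Among the members known mainly for roles inside the cell, S100a16 had the largest difference. S100a16, a widely expressed member, had a value of 6.16 in B-Gal positive cells and 9.21 in B-Gal negative cells, a difference of -3.04 and an 8.25-fold lower signal. It had the 333rd lowest difference of all expressed genes. The offset of 32 gave 6.01-fold, and the stricter floor gave at least 7.65-fold. On the B-Gal negative array S100a16 was thus well above the floor, and on the B-Gal positive array it was within 0.6 of it.

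S100a6, or calcyclin, is common in fibroblasts and epithelial cells and binds the calcyclin-binding protein encoded by Cacybp. Its values were 9.90 in B-Gal positive cells and 10.98 in B-Gal negative cells, a difference of -1.08, just past 2-fold. S100a11, whose protein binds annexin A1, lay just inside it, with values of 10.74 in B-Gal positive cells and 11.67 in B-Gal negative cells and a difference of -0.93. S100a11 was the member with more than 1 probe set, and the one not chosen by the rule of highest mean gave -0.94, with values of 10.48 in B-Gal positive cells and 11.42 in B-Gal negative cells. S100a6 and S100a11 were far above the floor on both arrays, unlike S100a9, S100a16 and S100a8, which were near it on the B-Gal positive array. At 1.5-fold, S100a11 joined the lower members and made them 5, beside 20.1% of expressed genes.

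S100a10 and S100a13 differed little. S100a10, also called p11, does not bind calcium. It joins annexin A2 in a tetramer that holds plasminogen at the cell surface. Its values were 12.23 in B-Gal positive cells and 12.41 in B-Gal negative cells, a difference of -0.18. S100a13 takes part in the release of FGF1 from cells by a route that bypasses the secretory pathway. Its values were 7.5 in B-Gal positive cells and 7.62 in B-Gal negative cells, a difference of -0.12.

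S100a1 and S100a4 were the members with higher values in B-Gal positive cells. S100a1 is best known from heart and skeletal muscle, where it acts on the ryanodine receptor and calcium release. It had a value of 8.38 in B-Gal positive cells and 7.01 in B-Gal negative cells, a difference of 1.37, and 6.30% of expressed genes had a difference at least as high. S100a4 binds non-muscle myosin heavy chain and is known both as fibroblast-specific protein 1 and as a gene of macrophages and other leukocytes. It had a value of 9.0 in B-Gal positive cells and 8.24 in B-Gal negative cells, a difference of 0.76 or 1.70-fold. At 1.5-fold, S100a4 joined S100a1 and made 2 higher members, beside 18.8% of expressed genes.

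**Figure D2:**
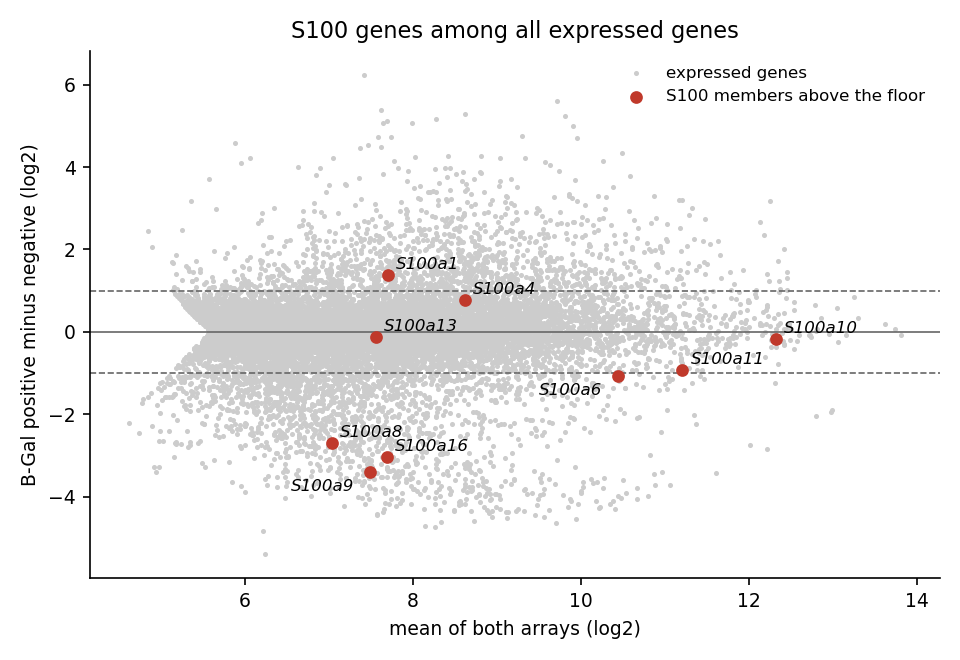
B-Gal positive value minus B-Gal negative value (y axis, log2) against the mean of both arrays (x axis, log2) for the 13784 expressed genes (grey) and the 9 S100 members above the floor (red), with dashed lines at 2-fold. S100a8, S100a16 and S100a9 lie between -2.71 and -3.41, S100a6 and S100a11 lie around the lower dashed line, and S100a1 lies above the upper one.

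Markers of the cell types that the samples could hold differed strongly between the same arrays. Their counts stand beside 9.92% of all expressed genes at least 2-fold higher and 12.7% lower. All 14 macrophage markers passed 2-fold on the higher side, and their summed linear signal was 57444 in B-Gal positive cells and 4987 in B-Gal negative cells, with 0 markers at or under the floor on the B-Gal positive array and 2 on the B-Gal negative array. All 12 fibroblast markers were at least 2-fold lower, with summed signals of 15785 in B-Gal positive cells and 92883 in B-Gal negative cells and 0 markers at or under the floor on either array. A 2-fold lower value was found for 5 of 7 mural and myofibroblast markers, 7 of 9 endothelial markers, 7 of 7 expressed mast cell markers and 3 of 5 expressed T and NK cell markers, with 0 higher in each. The B-Gal positive array had 5 of 8 measured mast cell markers at or under the floor, and the B-Gal negative array had 1. For the T and NK cell list these counts were 5 of 7 and 2. An expressed marker under the floor on the B-Gal positive array passed the filter by its B-Gal negative value alone. Such a marker could be called lower but not higher. That held for every T and NK cell marker called lower and for most mast cell markers called lower. The part of cell mixture in these marker differences was not tested.

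The genes on chromosome 3 were next taken in order, by their RefSeq order alone. S100a1 to S100a9 form a run of 12 S100 genes with no other protein-coding gene between them, and 7 members lie in it. A block of 56 protein-coding genes, which holds the epidermal differentiation genes, separates it from S100a11 and S100a10. Higher and lower members were interspersed in the run. S100a1 (1.37) stands next to S100a13 (-0.12), S100a16 (-3.04) follows after S100a14, and S100a4 (0.76) and S100a6 (-1.08) are separated by S100a5. S100a8 and S100a9, the last pair of the run, were both lower. S100a1 and S100a13 overlap by 98 bases in the annotation, and their probe sets gave different values, but whether a probe of one also reads the other was not tested.

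Of the other 5 genes in that run, S100a7a, a skin S100 gene, was above the floor, with values of 5.97 in B-Gal positive cells and 5.82 in B-Gal negative cells. S100a2, S100a3, S100a5 and S100a14 were under the floor on both arrays. Outside the run, S100g, the intestinal calcium carrier, had values of 5.39 in B-Gal positive cells and 5.60 in B-Gal negative cells, at the floor, and S100z was under it on both. S100pbp, which encodes a protein that binds S100P, had values of 7.61 in B-Gal positive cells and 8.03 in B-Gal negative cells. Of the 56 genes between S100a9 and S100a11, 46 were measured and 13 were expressed. Their differences ran from -0.34 to 0.83, and 0 of the 13 reached 2-fold, beside 9.92% of all expressed genes higher and 12.7% lower. Most of the 13 had values near or under the floor on both arrays, which limits the difference they could show.

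**Figure D3:**
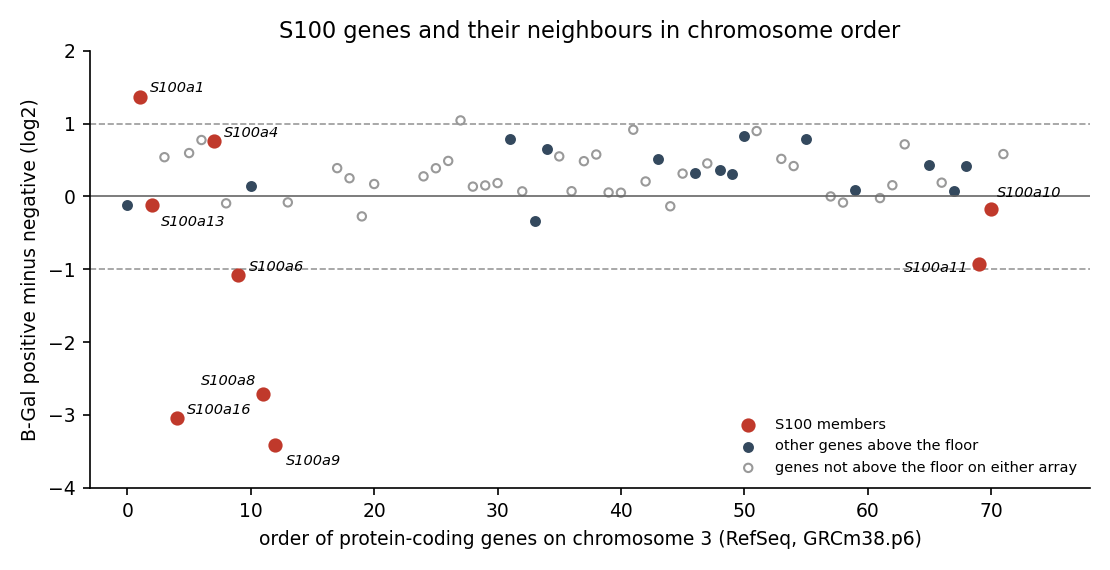
B-Gal positive value minus B-Gal negative value (y axis, log2) for the measured protein-coding genes from the one before S100a1 to the one after S100a10, in chromosome order (x axis, gene count, not distance). Red points are S100 members, dark points other genes above the floor and open points genes not above it on either array. The members spread from -3.41 to 1.37, while the dark points of the block between S100a9 and S100a11 stay between -0.34 and 0.83. Most of the dark points in that block are genes with values near or under the floor on both arrays.

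Annexins are the membrane-binding partners of several S100 proteins. Of 12 annexin genes, 10 were expressed, with 3 at least 2-fold higher on deposited values, 1 lower and a median difference of 0.09. The shares among all expressed genes were 9.92% higher and 12.7% lower. Anxa2, the partner of S100A10, had values of 11.52 in B-Gal positive cells and 11.92 in B-Gal negative cells, a difference of -0.40 beside -0.18 for S100a10. Anxa1, the partner of S100A11, had a difference of -0.31, with values of 12.26 in B-Gal positive cells and 12.57 in B-Gal negative cells. Anxa11, whose protein binds S100A6, was on the opposite side from S100a6, with values of 9.76 in B-Gal positive cells and 8.87 in B-Gal negative cells. The higher annexins were Anxa4 (3.03-fold), Anxa3 (2.27-fold) and Anxa9 (at least 1.69-fold when its B-Gal negative value is set to the floor), and the lower one was Anxa8 (2.76-fold).

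Of the 16 listed partner genes, which include Anxa2, 14 were expressed, with 4 at least 2-fold higher, 1 lower and a median of 0.18. All expressed genes together had 9.92% higher and 12.7% lower. Cybb and Cyba, the membrane subunits of the phagocyte NADPH oxidase to which S100A8 and S100A9 bring arachidonic acid, were 9.13-fold and 4.0-fold higher, on the opposite side from S100a8 and S100a9. Myh9 and Myh10 encode non-muscle myosin heavy chains. Myh9, a target of S100A4, had values of 11.07 in B-Gal positive cells and 11.18 in B-Gal negative cells, while Myh10 was 8.20-fold lower. Ahnak, a very large protein that binds the S100A10 and annexin A2 complex, was 1.69-fold higher, with values of 10.64 in B-Gal positive cells and 9.88 in B-Gal negative cells. Mdm2, the ubiquitin ligase of p53, was 2.98-fold higher.

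Receptors of extracellular S100 proteins and their signalling partners were mostly higher. All 11 listed genes were expressed, with 6 at least 2-fold higher, 1 lower and a median of 1.42, beside 9.92% higher and 12.7% lower among all expressed genes. Tlr4, the receptor for S100A8 and S100A9 on myeloid cells, had values of 9.30 in B-Gal positive cells and 7.88 in B-Gal negative cells, 2.67-fold higher. Cd14, its co-receptor, was 4.25-fold higher, and Cd36, a scavenger receptor that takes up fatty acids, was 13.8-fold higher. Cd33, a sialic acid-binding receptor that binds S100A9 in human cells, was 4.29-fold higher, and Alcam, an adhesion molecule, 4.59-fold higher. Ager, which encodes RAGE, had values of 6.86 in B-Gal positive cells and 6.51 in B-Gal negative cells. Cd14 is also in the list of macrophage markers, which were higher on the same array.

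Plasminogen activation at the cell surface, the process that S100A10 and annexin A2 assist, was split. Of 6 expressed genes, 1 was at least 2-fold higher and 2 were lower, with a median of 0.16. Over all expressed genes 9.92% were higher and 12.7% lower. Plat, the tissue plasminogen activator, was 12.4-fold lower, with values of 7.70 in B-Gal positive cells and 11.34 in B-Gal negative cells. Serpinb2, an inhibitor of plasminogen activators, was 11.9-fold lower. Plau, the urokinase activator, was 2.39-fold higher, with values of 10.88 in B-Gal positive cells and 9.63 in B-Gal negative cells. Plgrkt, a plasminogen receptor gene, had values of 8.24 in B-Gal positive cells and 7.48 in B-Gal negative cells.

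Other EF-hand genes gave a measure of calcium-binding proteins outside the family. Of 43 measured, 36 were expressed, with 4 at least 2-fold higher, 9 lower and a median of -0.11. These counts stand beside 9.92% of all expressed genes at least 2-fold higher and 12.7% lower. The largest differences were those of secretory pathway and matrix proteins. Rcn1 and Rcn3, reticulocalbins of the endoplasmic reticulum, differed by -3.93 and -3.59 on the log2 scale, and Sparc and Sparcl1, secreted matrix-binding proteins, were 7.15-fold and 7.74-fold lower. The 4 higher ones, named after their values were seen, were Aif1, an actin-binding protein of macrophages (6.44-fold), Lcp1, the leukocyte plastin (4.81-fold), Efhd2 (4.45-fold) and Hpcal1 (2.48-fold). Aif1 is also in the macrophage list.

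**Figure D4:**
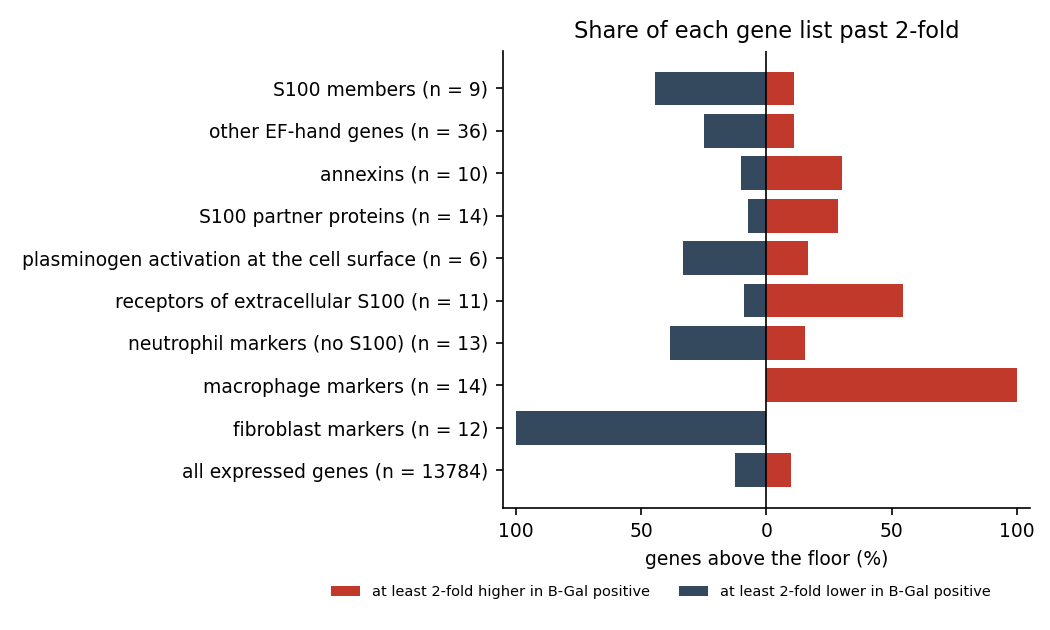
Share of expressed genes in each list (x axis, percent) past 2-fold on the higher side (red, right) or the lower side (dark, left) in B-Gal positive cells relative to B-Gal negative cells, with the number of expressed genes in brackets and all 13784 expressed genes at the bottom. The S100 bar leans to the lower side (4 of 9 lower, 1 of 9 higher), the receptor list to the higher side (6 of 11), and the macrophage and fibroblast bars are full on opposite sides.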

How the data were processed

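For each array the authors deposited 1 value per probe set, taken as log2. The values lay between 1.16 and 14.8, from which the log base was inferred, and all folds depend on it. Partek is the tool named, per the submitters' processing notes, without a version. Its role, the summarization, the background correction and the normalization are not stated. Array medians were 6.16 for B-Gal positive and 6.18 for B-Gal negative, and no scaling was added.

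Of 28853 probe sets, 21789 named 1 gene in the platform annotation and were used. Where a gene had several, the probe set highest on average was kept. A gene was called at 2-fold, and a fold with 1 value under the floor was computed against the floor ("at least"). With 1 array per group no p-value was computed. The members and the 17 gene lists were chosen with earlier results of these data known. Named were all members, the other measured S100 genes and S100pbp. Also named were in each list the expressed genes with the largest absolute differences, at most 4, and a few fixed genes such as Anxa1, Anxa2 and Tlr4. Of the macrophage, fibroblast, mural, endothelial, mast cell and T and NK cell lists only counts and, for the first 2, sums are given. The text says where a gene falls outside this rule, and 1 fixed gene is not reported here. Marker sums and counts at or under the floor cover all measured genes of a list.

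Alternatives were centred array medians, a loess fit (span 0.4, 3 iterations), quantile normalization, an offset of 32, no filter, a floor at the 99th percentile, values raised to the floor, the mean over probe sets, and thresholds of 1.5-fold and 4-fold. The other S100a11 probe set was added after the data were seen. Only the 2-fold cut was tried on simulated differences, with 4-fold shifts and noise of the receptor genes' spread. The floor, the choice of probe set and the list counts were not tried on simulated data. Python 3.11.15, numpy 2.4.6, pandas 2.3.3, statsmodels 0.14.6 and matplotlib 3.10.9 were used.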

Additional observations from a re-analysis of the deposited data

How the results depend on the processing

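The count of S100 members at least 2-fold higher was 1, and 2 at the 1.5-fold threshold and 0 at the 4-fold threshold. The count at least 2-fold lower was 4, and ran from 3 (4-fold) to 5 (1.5-fold). Under the other 8 alternatives both counts stayed at 1 and 4. The counted members' differences were left unchanged by dropping the filter, by the stricter floor, by raising values to the floor and by averaging probe sets. Those alternatives therefore say little about the counts. The median difference of the members above the floor was -0.93, and it was -0.55 with no filter, which adds S100b, because that alternative takes in a 10th member. No member changed sign in any alternative, except that S100b became 0 when values were raised to the floor. The loess fit moved the median of all expressed genes by -0.10, to -0.04. Under it the difference of S100a10 was -0.12, against -0.18 on deposited values, and that of S100a13 was -0.17, against -0.12. Among 217 values of single members and lists under alternatives, 14 moved by more than the standard deviation of the receptor genes' differences (0.37). The medians of 2 lists changed sign. The neutrophil marker median, 0.32 with S100a8 and S100a9 included, was -1.79 under the stricter floor, the 99th percentile, where fewer genes passed. The list of other S100 genes, which also holds S100pbp, had 3 expressed genes. Its median, -0.21, was the value of S100g, at the floor, and was 0.22 with no filter, where more genes passed. The keratinocyte median, -0.23, was -1.12 under the stricter floor. Leaving out a replicate was not possible with 1 array per group. No paired analysis was possible because each group has 1 array. Signal over background limits S100a8, S100a9 and S100a16 in B-Gal positive cells and S100b in both groups.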

Other observations

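Genes linked to the control of S100a8 and S100a9 and to the recruitment of neutrophils went both ways, although both calprotectin genes were lower in B-Gal positive cells. All 12 measured genes of this list were expressed, with 3 at least 2-fold higher, 2 lower and a median difference of 0.68. The shares of all expressed genes past 2-fold were 9.92% higher and 12.7% lower. Cebpa, a transcription factor of the myeloid lineage, was 4.89-fold higher, with values of 9.20 in B-Gal positive cells and 6.91 in B-Gal negative cells. Tnf, an inflammatory cytokine gene, was 2.86-fold higher, with values of 11.84 in B-Gal positive cells and 10.33 in B-Gal negative cells. Cxcl5, a neutrophil-attracting chemokine gene, was 20.9-fold lower, with values of 6.91 in B-Gal positive cells and 11.30 in B-Gal negative cells. Il6 was 3.74-fold lower, with values of 9.30 in B-Gal positive cells and 11.21 in B-Gal negative cells.

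The S100-fused and cornified envelope genes, skin genes that lie near the S100 run on chromosome 3, were low on both arrays. Of 14 measured, 6 were expressed, and 0 reached 2-fold in either direction, beside 9.92% of expressed genes at least 2-fold higher and 12.7% lower. Sprr1b, a cornified envelope precursor gene of wounded epidermis, had values of 5.81 in B-Gal positive cells and 5.03 in B-Gal negative cells. Sprr4, of the same family, had values of 5.85 in B-Gal positive cells and 5.20 in B-Gal negative cells. Hrnr, the hornerin gene, had values of 6.43 in B-Gal positive cells and 5.99 in B-Gal negative cells.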
